A study of Mus musculus with 24 samples.

Results

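The enzymes described here are the mouse genes of xenobiotic metabolism whose names place them in the cytochrome P450 subfamilies Cyp2 and Cyp3a, the UDP-glucuronosyltransferase families Ugt1a and Ugt2, the cytosolic glutathione S-transferases (classes alpha, mu, pi, theta, omega and kappa) or the sulfotransferase family Sult1. The rule for membership used gene names and no expression value, and 104 protein-coding genes of the 53465 in the count table met the rule: 49 Cyp2, 9 Cyp3a, 9 Ugt1a, 10 Ugt2, 21 Gst and 6 Sult1 genes. A further 19 genes with such names were not protein coding and were left out. RNA came from mice carrying a bacterial artificial chromosome in which the fluorescent protein Venus replaced the coding sequence of *Guca2a* (guanylin), so that the *Guca2a* promoter drove Venus. The line descended from a single founder and had been backcrossed to C57Bl6J to a varying degree. Epithelial cells of the duodenum, jejunum, ileum and colon, the last taken with the rectum, were sorted into Venus-positive and Venus-negative cells. The sort kept live, nucleated cells that did not stain for CD45, a marker of immune cells. Both sorts therefore came from transgenic animals, and no animal had been given a drug as far as the labels say. Each of the 8 groups (region by sort) held 3 libraries. Age and sex are not in the labels, and the mouse behind each library is not named, so p values measure the spread between libraries.

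Enzymes of this kind make foreign and endogenous lipophilic molecules easier to excrete. Cytochromes P450 of the Cyp2 and Cyp3a subfamilies, with electrons from the reductase *Por*, add an oxygen to drugs, fatty acids and steroids. The transferases then attach a polar group: glucuronic acid by Ugt enzymes, glutathione by Gst enzymes and sulfate by Sult enzymes. In the gut these reactions take place mainly in absorptive cells, where they lower the amount of an oral drug that reaches the portal blood. Their genes lie in clusters of duplicated copies (Ugt1a on chromosome 1, Gstm on 3, Cyp3a and Ugt2 on 5, most Gsta on 9, Cyp2d on 15 and Cyp2c on 19 in GRCm38), and the nuclear receptors *Nr1i2* (PXR) and *Nr1i3* (CAR) are known inducers of several of them.

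Promoter sequence was available from RefSeq (GRCm38.p6) for 93 of the 104 genes. The 3 promoters printed here are examples from P450 genes described at length below, *Cyp3a11* and *Cyp2b10*, which were highest in the jejunum, and *Cyp2c55*, which was highest in the colon. Each runs 5′ to 3′ on the strand of its gene, from 250 bases before to 50 bases after the RefSeq start. They lie at chr5:145879805-145880104 on the reverse strand, chr7:25897408-25897707 on the forward strand and chr19:39006769-39007068 on the forward strand. Capitals mark letters that matched one of 6 short motifs searched on both strands, with overlaps allowed: the antioxidant response element core TGACNNNGC, the xenobiotic response element core GCGTG, an HNF4 site CAAAGTCCA, an HNF1 consensus site, a TATA box TATAAA and a GATA site AGATAA.
Cyp3a11: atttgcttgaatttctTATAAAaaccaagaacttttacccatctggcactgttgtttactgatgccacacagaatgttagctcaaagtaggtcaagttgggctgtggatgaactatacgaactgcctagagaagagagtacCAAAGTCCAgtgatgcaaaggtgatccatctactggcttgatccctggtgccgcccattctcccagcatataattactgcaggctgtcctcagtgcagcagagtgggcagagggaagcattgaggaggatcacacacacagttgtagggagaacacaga
Cyp2b10: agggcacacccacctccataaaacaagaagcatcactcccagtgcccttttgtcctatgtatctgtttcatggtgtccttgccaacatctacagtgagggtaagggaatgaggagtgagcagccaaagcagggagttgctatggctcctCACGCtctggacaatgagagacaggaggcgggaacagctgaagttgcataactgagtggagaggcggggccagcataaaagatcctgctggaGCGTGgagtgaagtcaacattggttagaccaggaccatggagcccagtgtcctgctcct
Cyp2c55: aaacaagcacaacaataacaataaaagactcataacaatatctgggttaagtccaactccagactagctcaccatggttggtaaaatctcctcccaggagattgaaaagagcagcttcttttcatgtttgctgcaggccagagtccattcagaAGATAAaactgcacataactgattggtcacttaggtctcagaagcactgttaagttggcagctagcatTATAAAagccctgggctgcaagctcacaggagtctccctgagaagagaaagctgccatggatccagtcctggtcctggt
The *Cyp3a11* window held the HNF4 letters from base -109 and the TATA letters from base -234 relative to the RefSeq start, *Cyp2b10* held the xenobiotic response element core at -101 and -9, and *Cyp2c55* held the TATA letters at -29 and the GATA letters at -97.

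The HNF4 letters were found in 10 of the 93 promoters of these enzymes (10.8%) and in 0.475% of all 32851 promoters of the same length. HNF4 is a nuclear receptor of liver and gut epithelium. The other motifs were held by 5.38% against 12.4% (antioxidant response element core), 18.3% against 32.4% (xenobiotic response element core), 4.30% against 0.399% (HNF1 site), 35.5% against 13.6% (TATA box) and 16.1% against 11.2% (GATA site) of the promoters of these enzymes and of all promoters. The genes with the HNF4 letters are neighbours in the Cyp2c cluster of chromosome 19 and the Cyp3a cluster of chromosome 5, which hold duplicated genes. The 10 matches include promoters with identical flanks, so this count and share are not of independent sequences. Several of these genes were barely counted in these cells. *Cyp2c40*, *Cyp2c67*, *Cyp2c70*, *Cyp3a16*, *Cyp3a41a* and *Cyp3a41b* each had 31 or fewer counts over all libraries, too few to be tested. The 29 bases around each match are given to show which genes also share the flanks, with the match in capitals.
Cyp2c40 (chr19:39812841-39812869): atcattgagaCAAAGTCCAtttggaagag
Cyp2c65 (chr19:39060880-39060908): gatgttggaaCAAAGTCCActgggaggag
Cyp2c67 (chr19:39649149-39649177): atcattgagaCAAAGTCCAtttggaagca
Cyp2c68 (chr19:39741160-39741188): atcattgaaaCAAAGTCCAattggaagag
Cyp2c69 (chr19:39886826-39886854): atcattgagaCAAAGTCCAtttggaagag
Cyp2c70 (chr19:40187332-40187360): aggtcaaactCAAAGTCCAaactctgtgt
Cyp3a11 (chr5:145879945-145879973): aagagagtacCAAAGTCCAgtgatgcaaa
Cyp3a16 (chr5:145469804-145469832): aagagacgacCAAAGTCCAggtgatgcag
Cyp3a41a (chr5:145720213-145720241): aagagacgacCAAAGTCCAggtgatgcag
Cyp3a41b (chr5:145584807-145584835): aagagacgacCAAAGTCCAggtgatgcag
*Cyp3a16*, *Cyp3a41a* and *Cyp3a41b* share the same 29 bases, as do *Cyp2c40* and *Cyp2c69*. A match of letters is a description of the sequence and does not show that a factor binds there.

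Between 7458616 and 23063124 reads were counted on genes per library, and 3 counts, taken as the floor of detection, were worth 0.130 to 0.402 CPM, the counts of a gene scaled to a common library size. This floor covers counting error only, since no molecular identifiers are named and copies of a molecule then cannot be told from separate ones. The same holds for the exact counting intervals given below. They pool the reads of a group and leave out the spread between its libraries. The enzymes together took 426 to 2634 CPM of the raw counts of a library. Mitochondrial genes took 32.3% to 46.6% of the counts in positive cells of the duodenum, 47.1% to 60.6% in the jejunum, 41.0% to 55.4% in the ileum and 68.6% to 77.9% in the colon, against 61.2% to 80.7% over the negative libraries. Levels below are CPM after TMM normalisation, which scales each library so that most genes do not shift. *Guca2a* was at 216 to 393, 104 to 206 and 161 to 221 CPM in positive cells from duodenum to ileum and at 516 CPM or more in those of the colon. In negative cells of the 4 regions it was at 2.67 to 6.74, 21.5 to 27.7, 22.5 to 32.6 and 69.5 to 120.0 CPM. Sums over 6 immune genes reached at most 11.3 CPM in any library and sums over 7 stromal and endothelial genes at most 12.7 CPM. All 24 libraries held 58 or more counts of each of 4 Y-linked genes and at most 33 counts of *Xist*, which bears on these enzymes because several Cyp2 and Cyp3a genes are known to differ between the sexes in mouse liver.

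Of the 104 enzymes, 16 had no count in any library, 12 had 1 to 3 counts at most in a library and 17 had more but failed edgeR's filter on low counts, and 59 passed it and were tested. The tested genes were 21 Cyp2, 4 Cyp3a, 7 Ugt1a, 5 Ugt2, 18 Gst and 4 Sult1 genes, and they held 99.88% of the counts on all 104. A gene could pass this filter through the one group in which it was high, so counts over the tested genes describe them and do not stand for all 104. Among untested genes the highest count in a library was 37, for *Cyp2j5*, which was at 1.89, 0.648 and 2.67 CPM in negative cells of the duodenum and at 0 in all positive libraries. Compared per kilobase of exon, and averaged over the 24 libraries, the most abundant enzyme was *Cyp2c55* at 99.9 CPM per kb, followed by *Gsto1* (60.5), *Sult1d1* (49.1), *Gsta4* (36.0) and *Ugt2b34* (33.6). The mean of *Cyp2c55* was carried by positive cells of the colon (672 CPM per kb), and in all groups of the small intestine its mean was below that of *Gsto1*. The 10 most counted genes took 74.1% of the counts of all 104.

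Reads that fit several genes were left out of the deposited counts, which lowers the counts of near-identical copies. Of all 104 enzymes, 23 shared none of their 50-base stretches (the read length) with another annotated gene, 35 shared 25% or more and 19 shared 50% or more. *Cyp3a11*, *Cyp3a13*, *Gsta4*, *Gsto1*, *Sult1b1* and *Sult1d1* shared none, *Cyp2c55* 1.13% and *Ugt2b35* 0.725%. The Ugt1a genes share their last exons on the same strand, so that reads there belong to no single gene. *Ugt1a7c* had 69.3% and *Ugt1a1* 80.2% of their 50-base stretches in other genes, and the same-strand exon bases shared were 54.6% and 59.0%. *Gsta1* shared 89.7%, *Gsta2* 64.2%, *Cyp3a41a* 98.6% and *Cyp3a41b* 93.5%, and the levels of these genes are uncertain. Among the other P450 genes described below, *Cyp2c69* shared 54.8%, *Cyp2c68* 43.3%, *Cyp2d10* 40.5%, *Cyp2d9* 29.0%, *Cyp3a25* 26.8%, *Cyp3a44* 26.4%, *Cyp2c65* 20.6% and *Cyp2c66* 20.4% with other genes, and *Gstm1* shared 23.1%, so that part of their reads may not have been counted.

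Summed over each family, the Cyp3a genes stood highest in positive cells of the jejunum and the Cyp2 genes in positive cells of the colon. The Cyp3a sum was 461, 684 and 860 CPM in the jejunum (lowest, median and highest of the 3 positive libraries) and 58.7, 73.8 and 82.1 CPM in negative cells. In the colon the same sum was 35.6 to 61.1 CPM in positive and 4.91 to 14.3 CPM in negative cells. The Cyp2 sum of the colon was 761, 1969 and 2045 CPM in positive and 186, 228 and 256 CPM in negative cells, and most of it was *Cyp2c55*. The Gst sum was highest in positive cells of the duodenum, at 422 to 463 CPM, against 272 to 385 CPM in negative cells, and lowest in the ileum (109 to 149 CPM in positive and 104 to 189 CPM in negative cells). The duodenal sum does not stand for the family. In the test between the sorts described below, *Gsta4* was the 1 Gst gene called higher there (log2 difference 2.47) and 1 was lower. The median over the 18 tested Gst genes was -0.69. The Ugt2 sum of the duodenum was lower in all positive (130 to 223 CPM) than in all negative libraries (232 to 297 CPM). In bulk RNA of sorted cells, fewer cells of a type and less RNA per cell cannot be told apart.

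**Figure D1:**
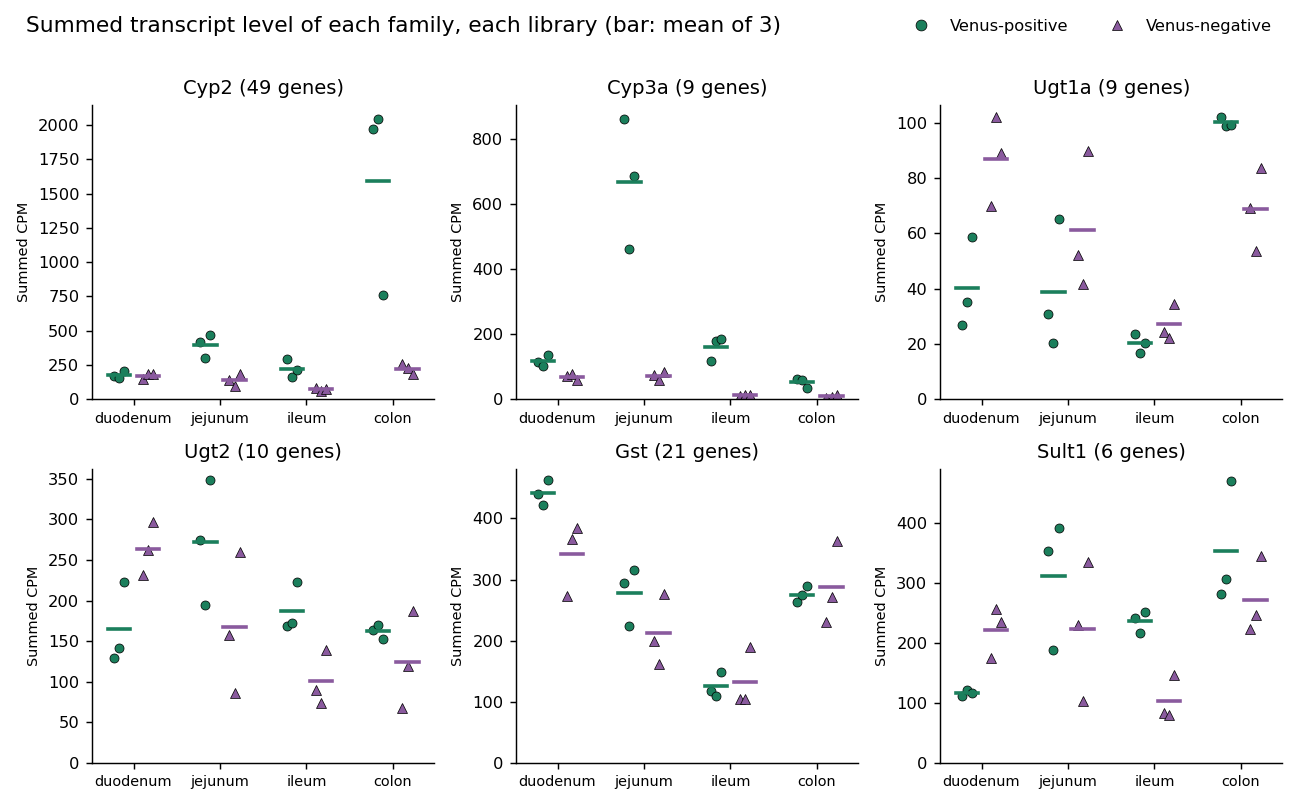
Summed transcript level of the 6 enzyme families in each library, in CPM on linear axes that start at 0, by region; circles are Venus-positive and triangles Venus-negative libraries, and bars are means of 3. The Cyp3a sum peaks in positive cells of the jejunum (461 to 860 CPM) and the Cyp2 sum in positive cells of the colon (761 to 2045 CPM).

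The first comparison asks how Venus-positive cells differed from Venus-negative cells within each region, tested with edgeR's quasi-likelihood test and adjusted over 15044 genes with a threshold of 0.05. Each P450 gene that passed the threshold was higher in positive cells, whereas the conjugating enzymes that passed it included higher and lower ones. In the duodenum 2 of the 59 tested enzymes were higher and 4 lower (background over all genes tested: 8.88% higher and 8.08% lower). In the jejunum 13 were higher and 6 lower (background 18.3% and 25.6%), in the ileum 17 and 7 (17.9% and 20.6%) and in the colon 11 and 1 (9.31% and 3.80%). As shares of the tested enzymes these counts were 3.39%, 22.0%, 28.8% and 18.6% higher and 6.78%, 10.2%, 11.9% and 1.69% lower. Split by reaction, 1, 9, 14 and 9 of the 25 tested P450 genes were higher in the 4 regions from duodenum to colon, and 1, 4, 3 and 2 of the 34 tested transferases. The share of P450 genes called higher was below the background in the duodenum and above it in the other regions. For transferases this share was below the background in every region. Lower transferases numbered 4, 6, 7 and 1, a share above the background in the duodenum alone and near or below it elsewhere. By edgeR's test none of the tested P450 genes was lower in positive cells in any region. DESeq2 called no P450 gene lower either, and at an unadjusted p under 0.05 by edgeR 1, 1, 1 and 0 were lower (*Cyp2c65* in the duodenum, *Cyp2f2* in the jejunum and *Cyp2e1* in the ileum). Over all alternatives, leaving out single libraries included, at most 1 P450 gene was called lower in the duodenum (*Cyp2c65* or *Cyp2j5*) and 1 in the ileum (*Cyp2e1*, without positive library 1). With 1 library left out, the number of higher transferases was 1, 1 to 6, 2 to 4 and 0 to 1 from duodenum to colon, and that of lower ones 0 to 5, 4 to 9, 5 to 11 and 0 to 2. The number of higher P450 genes was then 1, 7 to 12, 11 to 13 and 7 to 10. The totals over all enzymes moved by over 1.5 times when some libraries were left out. In the duodenum 1, 0 and 2 enzymes were lower without positive library 1, positive library 2 or negative library 2. In the jejunum 8 were higher without negative library 2, in the ileum 12 were lower without positive library 1, and in the colon 7 were higher without positive library 2. In the colon none was lower without positive library 1, positive library 2 or negative library 3, and 2 were lower without positive library 3. In the duodenum none was lower with library size scaling, 7 were lower with the sequencing index as a covariate, and 4 were higher and 10 lower in the fit of the compared libraries alone. The same fit called 4 lower in each of ileum and colon, and the colonic number was 2 with DESeq2, RLE factors or the index covariate. The median log2 difference of the tested P450 genes was 0.28, 0.80, 1.29 and 1.18 from duodenum to colon, with genes at 0 counts in a group set at their bound, and that of the transferases was -0.82, -0.45, -0.53 and 0.10. Over all genes tested it was -0.16, -0.28, -0.27 and 0.00.

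**Figure D2:**
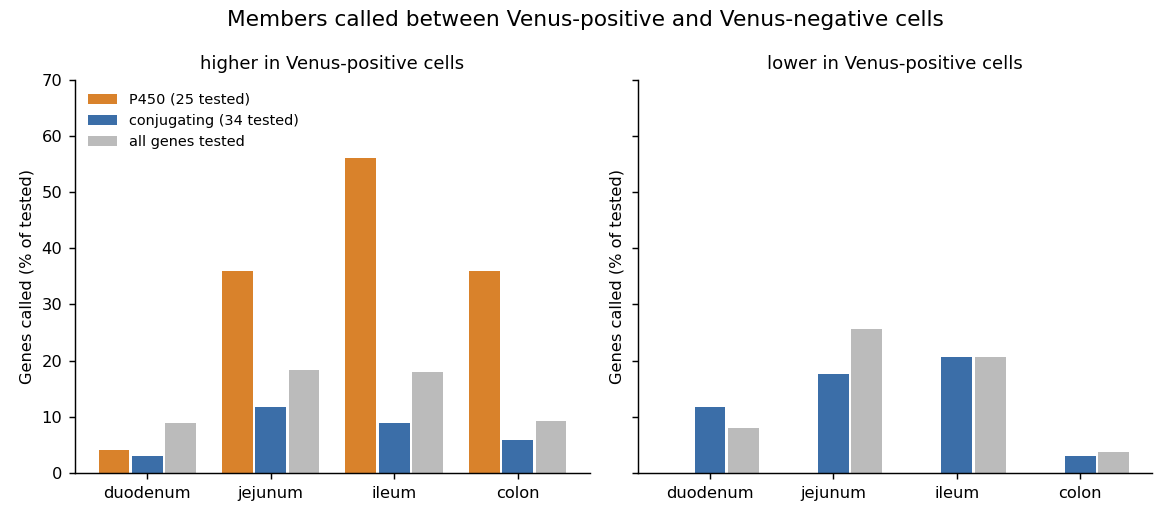
Share of tested genes called higher (left) or lower (right) in the Venus-positive sort at an adjusted p of 0.05, in percent, by region, for 25 P450 genes, 34 transferases and all 15044 genes tested. P450 genes show no bar in the right panel because none was called lower.

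**Figure D3:**
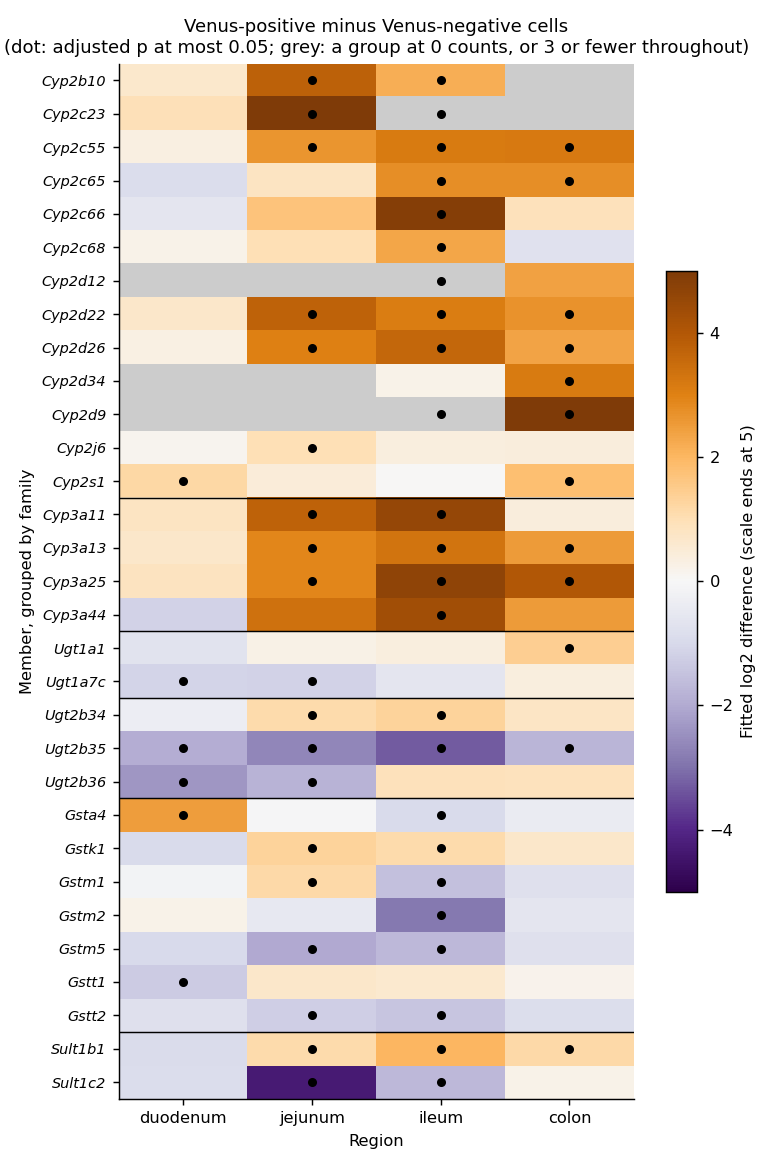
Fitted log2 difference between Venus-positive and Venus-negative cells for the enzymes called in at least 1 region, grouped by family, with regions as columns; orange is higher and purple lower in positive cells, dots mark an adjusted p of at most 0.05, and grey marks cells where a group had no count or no library had more than 3. Every dotted P450 cell that is coloured is orange, and the *Ugt2b35* row is purple and dotted in all 4 regions.

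The sorts also differed in cell type markers. Sums over 10 enterocyte markers were 26209 to 31732 CPM in positive and 2613 to 3351 CPM in negative cells of the jejunum, and 6536 to 12226 against 578 to 853 CPM in the ileum, with 10 of the 10 markers higher in both. In the duodenum the sums were 2323 to 4916 against 1772 to 2574 CPM (3 of 10 markers higher) and in the colon 462 to 664 against 211 to 231 CPM (4 of 10). All 7 colonocyte markers were higher in positive cells of the colon (1893 to 2106 against 154 to 342 CPM). Their sums were not particular to the colon, at 1512.3 to 2368.5 CPM in positive cells of the jejunum and 916 to 1929 CPM in those of the ileum. Sums over 8 goblet cell markers were 53013 to 60457 CPM in positive cells of the duodenum and 1907 to 10090 CPM in those of the other regions, against 296 to 1848 CPM in negative cells, and all 8 were higher in every region. Sums over 8 Paneth cell markers were 22512 to 54083 CPM in positive cells of the duodenum, 1569 to 16317 CPM in the jejunum and 4146 to 9780 CPM in the ileum, against 198 to 804 CPM in negative cells of these regions, and 44.3 to 201 CPM against 14.0 to 253 CPM in the colon. The 8 enteroendocrine markers were all lower in positive cells of the small intestine (14.3 to 58.8 CPM against 249 to 1751 CPM). The 8 stem and proliferation markers were lower for 3, 7, 7 and 6 genes from duodenum to colon. The part of these cell types in the differences between the enzymes was not tested.

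*Cyp3a11* encodes the main inducible Cyp3a enzyme of mouse liver and gut, a target of PXR, and lies at chr5:145854426-145879964 on the reverse strand. In the jejunum it was at 409, 180.3 and 313 CPM in the Venus-positive and 28.2, 15.4 and 24.4 CPM in the Venus-negative libraries. Every positive library was above every negative one (log2 difference 3.73, SE 0.39, adjusted p = 4.62e-08, edgeR). In the ileum it was at 18.2, 31.00 and 29.1 CPM against 1.03, 0.564 and 1.77 CPM, a lower level than in the jejunum in both sorts, again without overlap, with a difference between the sorts of 4.57, SE 0.42, adjusted p = 1.21e-08. In the duodenum it was at 53.8, 47.9 and 42.8 CPM against 32.2, 31.96 and 17.7 CPM, a difference of 0.82 (adjusted p = 0.105), which passed the threshold with library size scaling (1.29, adjusted p = 0.013) and in a fit of the duodenal libraries alone (0.88, adjusted p = 0.0207). In the colon both sorts held under 1 CPM (0.618, 0.354 and 0.452 CPM against 0.360, 0.586 and 0.0850 CPM). The calls in the jejunum and ileum held under each alternative and without each library.

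*Cyp3a13*, a Cyp3a gene that is expressed in the gut, was the one Cyp3a member that stayed abundant in the colon. It was at 375, 215 and 304 CPM in the Venus-positive and 36.9, 34.7 and 48.03 CPM in the Venus-negative libraries of the jejunum, 49.6, 106 and 125 CPM against 7.80, 10.9 and 9.48 CPM in the ileum and 52.7, 49.98 and 35.1 CPM against 2.64, 6.89 and 14.03 CPM in the colon. The groups did not overlap in these regions, and the log2 differences were 2.90, 3.31 and 2.53 (largest adjusted p = 7.49e-05). In the duodenum it was at 48.9, 46.2 and 82.05 CPM against 32.2, 41.04 and 36.05 CPM (0.70, adjusted p = 0.209). *Cyp3a25*, a Cyp3a gene of liver and intestine, was at 74.1, 64.2 and 62.4 CPM against 8.73, 8.69 and 9.01 CPM in the jejunum and 46.7, 34.8 and 25.7 CPM against 1.11, 1.59 and 1.497 CPM in the ileum, with differences of 2.92 (SE 0.49) and 4.67 (SE 0.55). In the colon it had at most 2 counts in a negative library, and positive cells were higher by a ratio of 16.7 (95% exact counting interval 6.27 to 62.5), although 1 of the 3 positive libraries had no count (3.86, 2.41 and 0 CPM) and the groups overlapped. *Cyp3a44* was called in the ileum from few counts (1.35, 6.97 and 5.81 CPM against 0, 0.212 and 0.499 CPM, 4.31, SE 1.52, adjusted p = 0.025). How the *Cyp3a44* call fared without single libraries is not given here. The number of higher P450 genes in the ileum was 14 with all libraries and 11 to 13 with 1 left out. The remaining 5 Cyp3a genes were not tested. *Cyp3a44*, like *Cyp2j6* and *Gstk1* below, was picked out after its values were seen.

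**Figure D4:**
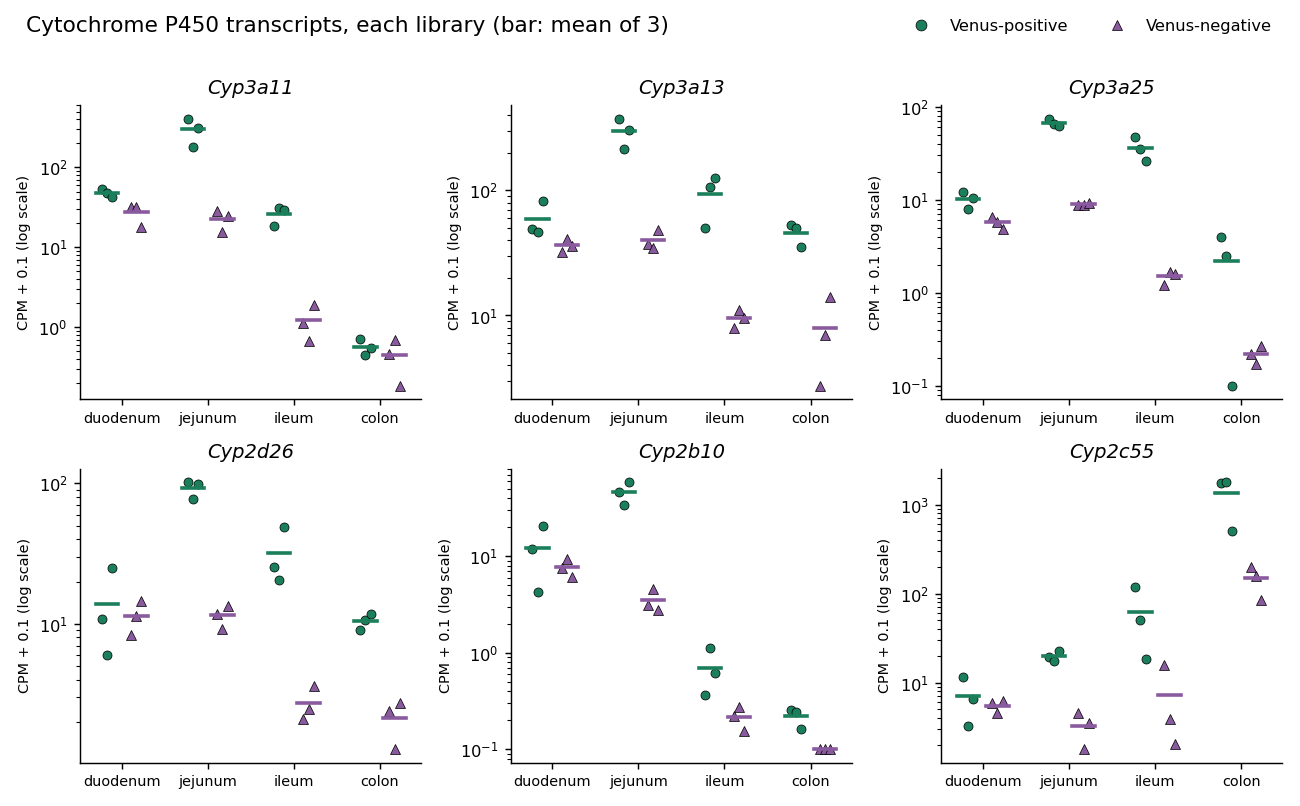
Level of 6 P450 genes in each library, in CPM plus 0.1 on a log axis, by region; circles are Venus-positive and triangles Venus-negative libraries, and bars are means of 3. *Cyp3a11*, *Cyp3a13*, *Cyp3a25*, *Cyp2d26* and *Cyp2b10* are highest in positive cells of the jejunum, and *Cyp2c55* in positive cells of the colon.

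*Cyp2b10*, which is known as the classical CAR target, had a proximal pattern. In the jejunum it was at 46.1, 34.1 and 58.2 CPM in the Venus-positive and 3.04, 4.50 and 2.66 CPM in the Venus-negative libraries, with groups that did not overlap (log2 difference 3.76, SE 0.47, adjusted p = 5.33e-07). Its ileal levels were 0.269, 1.02 and 0.515 CPM against 0.124, 0.176 and 0.0554 CPM, still with a difference between the sorts (2.18, SE 0.66, adjusted p = 0.00996). In the colon positive libraries held at most 2 counts and negative libraries none, so no fold was formed. In the duodenum the positive libraries spread from 4.19 to 20.5 CPM around the negative ones (7.51, 9.34 and 5.98 CPM).

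*Cyp2d26* and *Cyp2d22*, members of the subfamily that in humans is represented by CYP2D6, were higher in positive cells from the jejunum to the colon. *Cyp2d26* was at 102, 77.03 and 99.3 CPM in the Venus-positive and 11.7, 9.07 and 13.3 CPM in the Venus-negative libraries of the jejunum, 25.2, 20.5 and 49.1 CPM against 1.98, 2.36 and 3.49 CPM in the ileum and 8.96, 10.6 and 11.6 CPM against 2.28, 1.17 and 2.64 CPM in the colon. The groups did not overlap, with differences of 3.03, 3.60 and 2.37 (largest adjusted p = 0.000338). *Cyp2d22* was rarer, at 16.6, 25.3 and 14.8 CPM against 0.455, 1.93 and 1.81 CPM in the jejunum (log2 difference 3.73, SE 0.68, adjusted p = 5.42e-05). It was at 3.55, 4.75 and 6.25 CPM against 0.495, 0.987 and 0.111 CPM in the ileum (3.11) and 8.27, 10.8 and 4.78 CPM against 0.360, 1.39 and 1.87 CPM in the colon (2.67). The call in the colon was lost without colon positive library 2 (adjusted p = 0.0522). In the duodenum neither passed the threshold. *Cyp2d34* was found mostly in the colon. There it was at 31.8, 49.3 and 24.5 CPM in the Venus-positive and 3.84, 3.96 and 4.25 CPM in the Venus-negative libraries (log2 difference 3.13, SE 0.62, adjusted p = 0.00105) and at no more than 0.441 CPM in any library of the small intestine. *Cyp2d10* was at 5.02, 5.03 and 6.26 CPM against 1.68, 2.34 and 3.15 CPM in the colon (1.18, adjusted p = 0.431). *Cyp2d9* was at 3.86, 3.40 and 2.45 CPM in positive cells against 2 counts summed over the 3 negative libraries, a ratio of 53.9 (95% exact counting interval 14.6 to 450). Its call (5.68) was lost without colon positive library 1 (adjusted p = 0.071), colon negative library 1 (adjusted p = 0.0572), colon positive library 2 (adjusted p = 0.0745) or colon negative library 3 (adjusted p = 0.0775). In the ileum negative cells had no count of *Cyp2d9* or *Cyp2d12*, and positive cells were at least 2.62-fold and at least 1.97-fold higher against a floor of 3 counts per library. The *Cyp2d12* call was lost without ileum positive library 1 (adjusted p = 0.116), ileum negative library 1 (adjusted p = 0.091), ileum positive library 2 (adjusted p = 0.0576), ileum negative library 2 (adjusted p = 0.0962) or ileum negative library 3 (adjusted p = 0.0837), and with DESeq2 (adjusted p = 0.0563).

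*Cyp2c55*, a P450 of the colon and caecum known to hydroxylate arachidonic acid, had its highest level in the colon. There it was at 1731, 1791 and 500.3 CPM in the Venus-positive and 202, 158 and 84.8 CPM in the Venus-negative libraries, or 672 ± 365 CPM per kb of exon (SD, n = 3) in positive and 74.3 ± 29.6 CPM per kb in negative cells. Positive library 3 lay well below the other two, but all were above the negative libraries (log2 difference 3.18, SE 0.62, adjusted p = 0.000763). In the ileum it was at 119, 51.01 and 18.5 CPM against 15.6, 3.84 and 1.94 CPM (3.14, SE 0.63, adjusted p = 0.000209) and in the jejunum at 19.5, 17.3 and 22.5 CPM against 4.48, 1.67 and 3.39 CPM (2.64, SE 0.64, adjusted p = 0.00122), without overlap in either. In the duodenum the sorts overlapped at 3.12 to 11.4 CPM.

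*Cyp2c65*, an intestinal Cyp2c that also oxidises arachidonic acid, was detected in all groups. In the ileum it was at 33.6, 31.2 and 41.5 CPM in the Venus-positive and 5.07, 5.01 and 5.60 CPM in the Venus-negative libraries (log2 difference 2.76, SE 0.37, adjusted p = 1.4e-06) and in the colon at 95.2, 92.7 and 128 CPM against 8.15, 16.2 and 22.8 CPM (2.74, SE 0.37, adjusted p = 1.11e-05). In the jejunum it was at 66.02, 51.4 and 100.4 CPM against 41.7, 23.2 and 60.4 CPM, with overlap (0.80, adjusted p = 0.0625), and it passed the threshold with DESeq2 (0.93, adjusted p = 0.0199). In the duodenum positive cells were at 18.5, 32.02 and 44.2 CPM against 45.7, 64.3 and 63.1 CPM (-0.87, adjusted p = 0.0838). *Cyp2c68* was higher in positive cells of the ileum (19.7, 11.7 and 15.9 CPM against 1.77, 2.22 and 5.49 CPM, 2.33, SE 0.50, adjusted p = 0.00048). *Cyp2c66* was called from few counts there: it was at 1.78, 0 and 0.0736 CPM in positive cells and had 1 count in the 3 negative libraries, a ratio of 49.2 (95% exact counting interval 8.25 to 2e+03). The *Cyp2c66* call was lost without ileum positive library 1 (adjusted p = 0.745). *Cyp2c23* had a single count in negative cells of the jejunum against 1.53, 1.23 and 1.39 CPM in positive cells, a ratio of 62.2 (95% exact counting interval 10.8 to 2.49e+03). Its call there was lost without jejunum negative library 1 (adjusted p = 0.064) or jejunum negative library 2 (adjusted p = 0.0654). In the ileum its counts came from 1 positive library (0.969, 0 and 0 CPM), without which no difference was left.

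Among the other P450 genes, *Cyp2s1*, which is known for expression outside the liver and for induction through the Ah receptor, was higher in positive cells of the duodenum (37.9, 26.03 and 29.5 CPM against 13.2, 9.73 and 17.5 CPM, 1.21, SE 0.29, adjusted p = 0.0041) without overlap. In the colon it was at 46.2, 48.1 and 28.7 CPM against 13.4, 9.67 and 11.99 CPM, also without overlap (1.81, SE 0.29, adjusted p = 8.47e-05). In the jejunum and ileum its differences were 0.45 and 0.02 (adjusted p = 0.199 and 0.961). *Cyp2j6*, an epoxygenase of arachidonic acid, was expressed in all groups and passed the threshold in the jejunum alone (89.2, 51.6 and 89.8 CPM against 31.9, 26.8 and 55.96 CPM, 1.01, SE 0.36, adjusted p = 0.0251), where the groups overlapped. How this call fared without single libraries is not given here. The number of higher P450 genes in the jejunum was 9 with all libraries and 7 to 12 with 1 left out. *Cyp2u1*, which hydroxylates long-chain fatty acids, was at 6.25 to 34.9 CPM in positive and 4.27 to 14.8 CPM in negative cells of the jejunum and ileum and passed the threshold in no region. *Cyp2e1*, the ethanol-oxidising P450 that is abundant in liver, was at no more than 4.19 CPM in any library.

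Among the Ugt2 genes, *Ugt2b34* was the most abundant, and in the jejunum and ileum it and *Ugt2b35* were called in opposite directions. *Ugt2b35* (chr5:87000860-87013275, forward strand) was at 3.39, 0.614 and 5.18 CPM in the Venus-positive and 20.04, 8.36 and 28.4 CPM in the Venus-negative libraries of the jejunum and at 3.93, 0.661 and 2.72 CPM against 22.4, 11.5 and 38.2 CPM in the ileum. All positive libraries lay below all negative ones (-2.65, SE 0.58, and -3.29, SE 0.59; adjusted p = 0.000447 and 5.8e-05). In the duodenum it was at 7.27, 9.52 and 21.2 CPM against 50.8, 43.7 and 51.8 CPM (-1.95, SE 0.55, adjusted p = 0.0136) and in the colon at 5.80, 8.14 and 11.5 CPM against 24.4, 22.7 and 40.5 CPM (-1.78, SE 0.55, adjusted p = 0.028). It was the one enzyme called lower in positive cells of all 4 regions. The duodenal call was lost without duodenum positive library 1 (adjusted p = 0.0819) or duodenum positive library 2 (adjusted p = 0.0627), and with library size scaling (adjusted p = 0.0657). That in the colon was lost without colon positive library 1 (adjusted p = 0.133), colon positive library 2 (adjusted p = 0.103) or colon negative library 3 (adjusted p = 0.119). *Ugt2b34* was at 247, 185 and 312 CPM against 104, 65.4 and 178 CPM in the jejunum (1.10, SE 0.36, adjusted p = 0.0142). It was at 156, 171 and 216 CPM against 62.6, 60.1 and 96.1 CPM in the ileum (1.31, SE 0.36, adjusted p = 0.00479), higher in every positive library. The jejunal call was lost without jejunum negative library 2 (adjusted p = 0.0956) or jejunum positive library 3 (adjusted p = 0.0653). In the duodenum and colon it did not pass the threshold (-0.34 and 0.76).

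*Ugt2b36* was lower in positive cells of the duodenum (2.46, 0.739 and 1.01 CPM against 6.38, 9.08 and 5.98 CPM, -2.35, SE 0.74, adjusted p = 0.0268) and jejunum (-1.82, adjusted p = 0.0425, with overlap). The duodenal call was lost without duodenum positive library 2 (adjusted p = 0.111), duodenum negative library 2 (adjusted p = 0.0911) or duodenum positive library 3 (adjusted p = 0.0876), and with library size scaling (adjusted p = 0.0914). That in the jejunum was lost without jejunum positive library 1 (adjusted p = 0.0623), jejunum negative library 1 (adjusted p = 0.105), jejunum positive library 2 (adjusted p = 0.174), jejunum positive library 3 (adjusted p = 0.0699) or jejunum negative library 3 (adjusted p = 0.194), and with RLE factors (adjusted p = 0.058), with library size scaling (adjusted p = 0.106), without the filter on low counts (adjusted p = 0.0637) or in a fit of the compared libraries alone (adjusted p = 0.0538). *Ugt2a3*, a gut and liver glucuronosyltransferase, was at 4.92, 10.02 and 12.7 CPM against 29.5, 21.1 and 28.05 CPM in the duodenum and 23.1, 7.64 and 29.2 CPM against 28.2, 11.3 and 43.8 CPM in the jejunum, and no difference between the sorts passed the threshold (-1.51 and -0.48, adjusted p = 0.0615 and 0.496). In the fit of the duodenal libraries alone it was lower in positive cells (-1.46, adjusted p = 0.00264). In the colon it was close to 0 in both sorts.

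*Ugt1a7c*, which shares most of its sequence with other Ugt1a genes, was lower in positive cells of the duodenum (18.4, 28.8 and 43.4 CPM against 50.8, 80.3 and 67.3 CPM, -1.13, SE 0.37, adjusted p = 0.033). In the jejunum it was also lower, with overlap (14.3, 9.82 and 30.6 CPM against 33.9, 26.96 and 60.5 CPM, -1.15, SE 0.37, adjusted p = 0.0124). The duodenal call was lost without duodenum positive library 1 (adjusted p = 0.172), duodenum positive library 2 (adjusted p = 0.0923), duodenum negative library 2 (adjusted p = 0.125) or duodenum negative library 3 (adjusted p = 0.0718), and with library size scaling (adjusted p = 0.291). That in the jejunum was lost without jejunum positive library 1 (adjusted p = 0.0653), jejunum positive library 2 (adjusted p = 0.144) or jejunum negative library 3 (adjusted p = 0.13), and with library size scaling (adjusted p = 0.0807) or in a fit of the compared libraries alone (adjusted p = 0.0558). *Ugt1a1*, the enzyme that conjugates bilirubin, was at 24.96, 22.6 and 16.01 CPM against 13.5, 3.88 and 6.63 CPM in the colon (1.42, SE 0.46, adjusted p = 0.0373), higher in every positive library. This call was lost without colon positive library 1 (adjusted p = 0.122), colon positive library 2 (adjusted p = 0.133), colon negative library 2 (adjusted p = 0.197) or colon negative library 3 (adjusted p = 0.12), and with RLE factors (adjusted p = 0.0558), with library size scaling (adjusted p = 0.0966) or in a fit of the compared libraries alone (adjusted p = 0.0522). In the other regions its sorts overlapped.

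Among the glutathione transferases, *Gsta4*, the alpha-class enzyme that conjugates 4-hydroxynonenal from oxidised lipids, was set apart in the duodenum, where it was at 256, 196 and 161 CPM in the Venus-positive and 23.3, 42.5 and 45.1 CPM in the Venus-negative libraries. Every positive library was above every negative one (log2 difference 2.47, SE 0.38, adjusted p = 3.05e-05), and the call held under each alternative and without each library. In the jejunum it was at 12.3, 4.96 and 15.02 CPM against 11.7, 8.30 and 13.7 CPM and in the colon at 33.8, 36.03 and 40.7 CPM against 43.6, 52.5 and 51.96 CPM, with differences of -0.07 and -0.42 (adjusted p = 0.909 and 0.499). In the ileum it was lower in positive cells (7.86, 3.12 and 4.34 CPM against 6.52, 7.41 and 16.2 CPM, -0.96, SE 0.38, adjusted p = 0.0462) with overlapping groups. It lost the call without ileum positive library 2 (adjusted p = 0.21), ileum positive library 3 (adjusted p = 0.14) or ileum negative library 3 (adjusted p = 0.41), and with RLE factors (adjusted p = 0.0503), with library size scaling (adjusted p = 0.0828), with the index covariate (adjusted p = 0.0538) or in a fit of the compared libraries alone (adjusted p = 0.0981).

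Of the mu class, *Gstm5* was lower in positive cells of the jejunum (1.79, 1.17 and 2.92 CPM against 6.60, 6.56 and 10.2 CPM, -2.00, SE 0.45, adjusted p = 0.00056) and likewise of the ileum. Its ileal values were 1.83, 1.20 and 2.501 CPM against 4.70, 5.40 and 7.82 CPM (-1.70, SE 0.44, adjusted p = 0.00308), without overlap. *Gstm1* was called in opposite directions in these regions, a contrast that was not tested. It was at 5.11, 6.58 and 7.80 CPM against 2.12, 2.38 and 4.11 CPM in the jejunum (1.17, SE 0.39, adjusted p = 0.0169). It was at 1.35, 1.20 and 0.294 CPM against 4.41, 1.73 and 2.38 CPM in the ileum (-1.54, SE 0.43, adjusted p = 0.00487). The jejunal call was lost without jejunum negative library 1 (adjusted p = 0.0654), jejunum negative library 2 (adjusted p = 0.066) or jejunum positive library 3 (adjusted p = 0.0599). That in the ileum was lost without ileum negative library 1 (adjusted p = 0.0651), and in a fit of the compared libraries alone (adjusted p = 0.0842). *Gstm2* was lower in positive cells of the ileum from few counts (0.269, 0 and 0.0736 CPM against 0.9901, 0.458 and 1.33 CPM, -2.86, SE 0.94, adjusted p = 0.017). It lost the call without ileum positive library 2 (adjusted p = 0.0833), ileum positive library 3 (adjusted p = 0.0633) or ileum negative library 3 (adjusted p = 0.0573). The theta-class gene *Gstt2* was lower in positive cells of the jejunum (12.7, 12.3 and 15.97 CPM against 37.3, 25.99 and 33.3 CPM, -1.24, SE 0.30, adjusted p = 0.00146). In the ileum it was at 8.67, 7.75 and 9.12 CPM against 16.3, 15.1 and 38.03 CPM (-1.44, SE 0.31, adjusted p = 0.000435). *Gstt1* was lower in positive cells of the duodenum (6.86, 5.09 and 6.64 CPM against 13.5, 18.1 and 13.8 CPM, -1.29, SE 0.39, adjusted p = 0.0208). The *Gstt1* call was lost without duodenum positive library 1 (adjusted p = 0.0542), duodenum positive library 2 (adjusted p = 0.0845) or duodenum negative library 2 (adjusted p = 0.0898), and with library size scaling (adjusted p = 0.218) or without the filter on low counts (adjusted p = 0.076). *Gstk1*, the enzyme of mitochondria and peroxisomes, was higher in positive cells of the jejunum (15.8, 12.7 and 19.8 CPM against 2.88, 5.40 and 11.01 CPM, 1.31, SE 0.38, adjusted p = 0.00542). In the ileum its groups overlapped (1.11, adjusted p = 0.0258). *Gsto1*, the omega-class enzyme and the most abundant Gst gene per kilobase, lay between 58.2 and 211 CPM in all libraries and passed the threshold between the sorts in no region, although in the jejunum it passed the threshold with DESeq2 (0.83, adjusted p = 0.0195).

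**Figure D5:**
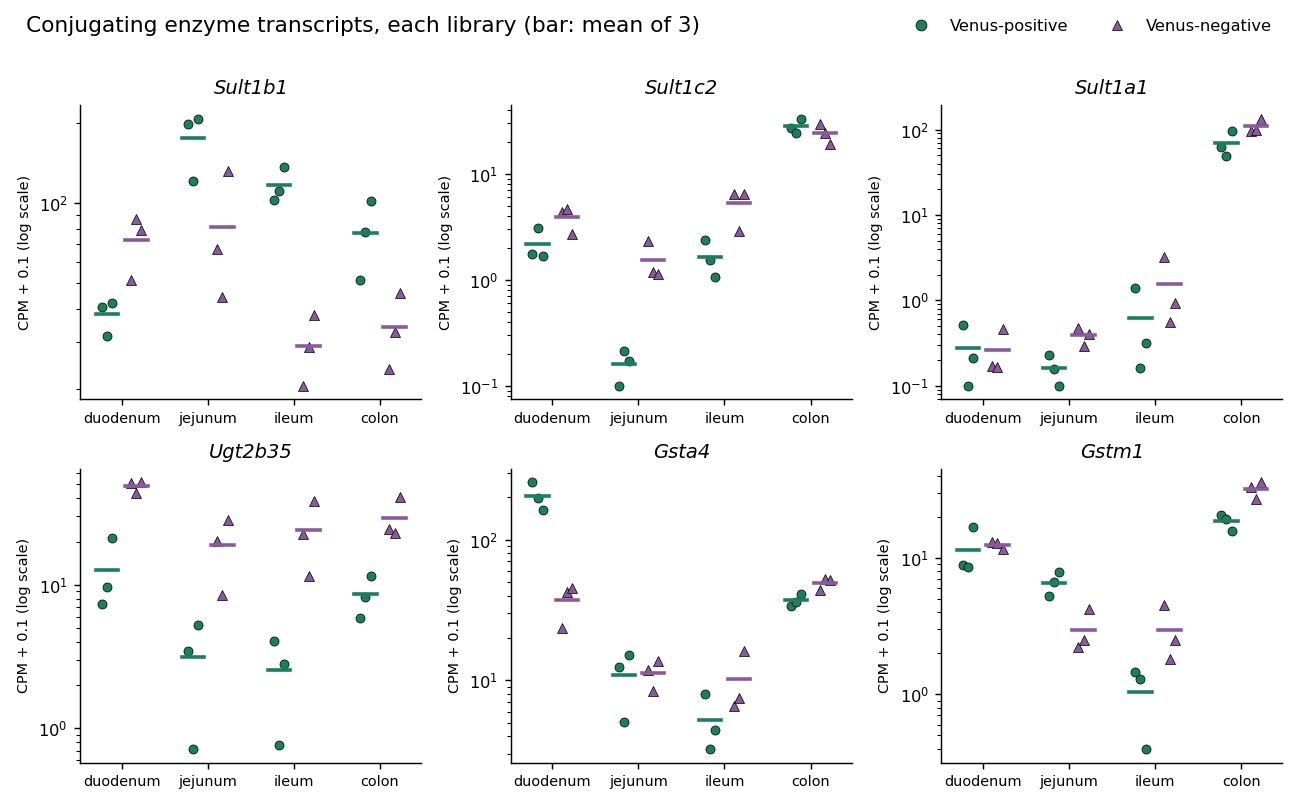
Level of 6 transferase genes in each library, in CPM plus 0.1 on a log axis, by region; circles are Venus-positive and triangles Venus-negative libraries, and bars are means of 3. *Gsta4* is highest in positive cells of the duodenum (161 to 256 CPM), *Sult1a1* is high in both sorts of the colon alone, and *Ugt2b35* is lower in positive cells of every region.

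Of the sulfotransferases, *Sult1b1*, which sulfates phenols and thyroid hormones, was higher in positive cells of the ileum (103, 110.2 and 136 CPM in the Venus-positive and 20.4, 28.6 and 37.7 CPM in the Venus-negative libraries, 2.01, SE 0.36, adjusted p = 5.17e-05), where the groups lay far apart. In the jejunum it was at 198, 120.1 and 207 CPM against 67.01, 44.2 and 131 CPM with a slight overlap (1.11, SE 0.35, adjusted p = 0.0103). It lost this call without jejunum negative library 2 (adjusted p = 0.0786). In the colon it was at 51.00, 77.7 and 101 CPM against 23.6, 32.6 and 45.8 CPM (1.17, SE 0.35, adjusted p = 0.0242). The colonic call was lost without colon negative library 1 (adjusted p = 0.111), colon positive library 2 (adjusted p = 0.103), colon negative library 2 (adjusted p = 0.105) or colon positive library 3 (adjusted p = 0.119), and with library size scaling (adjusted p = 0.0912). In the duodenum positive cells were at 40.6, 31.5 and 41.8 CPM against 51.3, 86.4 and 78.8 CPM, lower in each library, with a difference of -0.93 that missed the threshold (adjusted p = 0.0645) and passed it with DESeq2 (-0.89, adjusted p = 0.0497). *Sult1c2* was nearly absent from positive cells of the jejunum, with 3 counts over the 3 libraries, against 2.20, 1.09 and 1.03 CPM in negative cells, higher there by a ratio of 21.9 (95% exact counting interval 7.17 to 109). In the ileum it was at 2.26, 1.44 and 0.956 CPM against 6.35, 2.79 and 6.37 CPM (-1.71, SE 0.42, adjusted p = 0.00171), without overlap, and in the colon at 26.6, 23.9 and 32.98 CPM against 29.2, 24.2 and 19.05 CPM (0.20, adjusted p = 0.79). *Sult1d1*, a sulfotransferase of catecholamines, was expressed in every group at 47.0 to 240.2 CPM and passed the threshold in no region. *Sult1a1*, the phenol sulfotransferase, was at 62.2, 48.98 and 96.1 CPM against 95.4, 99.7 and 134 CPM in the colon, with overlap (-0.67, adjusted p = 0.408), and at no more than 3.09 CPM in any library of the small intestine.

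The genes that supply or accompany these enzymes were followed in lists drawn up with the members. Of 19 tested sensors and regulators, 1, 10, 9 and 5 were higher in positive cells from duodenum to colon and none lower (backgrounds as above). The PXR gene *Nr1i2* had a difference of 1.44 in the jejunum and 1.57 in the ileum (adjusted p = 0.000262 and 0.000121), and *Hnf4a* of 1.46, 1.42 and 1.25 in the jejunum, ileum and colon. The CAR gene *Nr1i3* passed the threshold in no region. Of 9 genes of the electron and haem supply of P450 enzymes, 0, 5, 3 and 2 were higher and 1, 2, 2 and 0 lower. The reductase *Por* was at 117, 129 and 90.3 CPM against 22.2, 25.4 and 25.5 CPM in the jejunum (log2 difference 2.20, SE 0.33, adjusted p = 5.13e-06). Of 16 genes listed for the cosubstrates, which include carriers as well as enzymes, 2, 7, 9 and 6 were higher and 2, 3, 3 and 0 lower. The lower ones of the jejunum were the carriers *Slc35a1* (-1.90) and *Slc35b2* (-1.66) and the enzyme *Cth* (-2.15). The higher ones included *Ugdh*, which makes UDP-glucuronic acid (1.87, 2.14 and 2.45 from jejunum to colon), and *Papss2*, which makes the sulfate donor PAPS (3.38, 3.41 and 2.18), with adjusted p of at most 8.32e-05. Of 18 tested transporters 2, 9, 9 and 7 were higher and 1, 5, 4 and 1 lower. The efflux pumps went in both directions. *Abcb1a* (1.64, 2.09, 2.77 and 2.28 from duodenum to colon) and *Abcc2* (2.96, 3.18 and 2.10 from jejunum to colon) were higher. *Abcc1* (-3.75 and -3.22) and *Abcc4* (-2.57 and -2.10) were lower in the jejunum and ileum. Of 34 other oxidising, reducing and hydrolysing enzymes 1, 12, 17 and 9 were higher and 9, 10, 4 and 2 lower, and of 11 other conjugating enzymes 0, 1, 2 and 3 were higher and 3, 7, 5 and 1 lower.

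The second comparison asks how the level of each enzyme changed along the gut within one sort. These comparisons share libraries with each other and with those between the sorts. Between positive cells of the jejunum and duodenum, 11 tested enzymes were higher in the jejunum and 8 lower (background 14.8% and 18.4%). The higher ones included *Cyp3a11* (53.8, 47.9 and 42.8 CPM in the duodenum and 409, 180.3 and 313 CPM in the jejunum; 2.64, SE 0.37, adjusted p = 2.62e-06), *Cyp2d26* (2.75), *Cyp3a25* (2.75), *Cyp2d22* (2.92) and *Cyp2u1* (2.79). Of the lower ones, *Gsta4* changed from 161 to 256 CPM in the duodenum to 4.96 to 15.0 CPM in the jejunum (-4.25, SE 0.42, adjusted p = 1.3e-08). *Gsta1*, which shares most of its sequence, was lower too (-3.92, SE 1.14, adjusted p = 0.00857). *Cyp2e1* had 4 counts and *Sult1c2* 3 counts over the positive libraries of the jejunum, and the duodenum was higher by a ratio of 29.1 (95% exact counting interval 10.9 to 110) and a ratio of 33.7 (95% exact counting interval 11.1 to 168). The *Cyp2e1* call was lost without duodenum positive library 2 (adjusted p = 0.0594). Without the filter on low counts 17 were higher. All 10 enterocyte markers were higher in the jejunum (median 2.98). All 8 goblet markers (median -3.63) and 6 of the 8 Paneth markers (median -2.43) were lower. Of the 8 stem and proliferation markers 5 were lower and 1 higher (median -2.38). The part of these cell types in the result was not tested.

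In positive cells 1 enzyme was higher in the ileum than in the jejunum and 13 were lower (background 3.00% and 2.15%). *Cyp2b10* had the largest difference (46.1, 34.1 and 58.2 CPM in the jejunum and 0.269, 1.02 and 0.515 CPM in the ileum; -6.25, SE 0.55, adjusted p = 6.45e-09). *Ugt2a3* (23.1, 7.64 and 29.2 CPM and 0.915, 0.180 and 0.0736 CPM, -5.56), *Cyp2c66* (-3.97) and *Cyp3a11* (-3.53) followed. The one higher gene was *Sult1c2*, which was higher in the ileum by a ratio of 25.5 (95% exact counting interval 8.42 to 126). The number of higher genes was 2 without ileal library 2 or 3 or jejunal library 3. With library size scaling 3 were higher and 8 lower, without the filter on low counts 5 were higher, and with DESeq2 2 were higher. The *Cyp2c66* difference rested on 34 ileal counts, of which 33 were in library 1, and was -7.94 without that library. Of the 10 enterocyte markers 4 were lower in the ileum in the same comparison and none higher (median log2 difference -1.53, sums of 26209 to 31732 CPM in the jejunum and 6536 to 12226 CPM in the ileum), and their part in the result was not tested.

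Many transferases were higher in the colon than in the ileum. In positive cells 21 enzymes were higher in the colon and 5 lower (background 11.0% and 10.7%), and 10 of the 18 tested Gst genes were among the higher ones. *Sult1a1* was at 1.29, 0.0601 and 0.221 CPM in the ileum and 62.2, 48.98 and 96.1 CPM in the colon (6.95, SE 0.67, adjusted p = 4.72e-09). *Cyp2c55* differed by 4.41 (SE 0.66), *Gstm1* by 4.24 (SE 0.44) and *Cyp2d34* by 7.08 (SE 0.78). *Cyp2c69* had no count in positive cells of the ileum and was at least 15.2-fold higher in the colon, and *Cyp2d10* had 1 count there, a ratio of 267 (95% exact counting interval 47.5 to 1.06e+04). The *Cyp2c69* call was lost with DESeq2 (adjusted p = 0.258). The 5 lower genes were all P450 genes: *Cyp3a11* (-5.77, SE 0.48, adjusted p = 2.25e-10), *Cyp2u1* (-4.38), *Cyp3a25* (-4.11), *Cyp2d26* (-1.60) and *Cyp2b10*, which was higher in the ileum by a ratio of 5.06 (95% exact counting interval 1.94 to 16.7). The *Cyp2b10* call was lost without colon positive library 1 (adjusted p = 0.0577), ileum positive library 2 (adjusted p = 0.209), colon positive library 2 (adjusted p = 0.066) or colon positive library 3 (adjusted p = 0.127). The *Cyp2d26* call was lost without ileum positive library 3 (adjusted p = 0.0532). With library size scaling, which moved the median of all genes by -0.51 in this comparison, 12 enzymes were higher and 9 lower, and without the filter on low counts 8 were lower. All 10 enterocyte markers were lower in the colon (median -3.17), and 5 of the 7 colonocyte markers were higher and 2 lower (median 1.86). Of the 8 Paneth markers 7 were lower (median -7.08), and of the 8 goblet markers 2 were higher and 3 lower (median -0.32). Of the 8 enteroendocrine markers 3 were higher (median 0.67). The part of these in the result was not tested.

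Few of these enzymes passed the threshold between negative cells of the duodenum and jejunum. None was higher in the jejunum by edgeR's test and 2 were lower (background 0.419% and 0.306%), *Gstm1* (12.9, 12.7 and 11.5 CPM in the duodenum and 2.12, 2.38 and 4.11 CPM in the jejunum; -2.10, SE 0.40, adjusted p = 0.00326) and *Gsta4* (-1.72, SE 0.38, adjusted p = 0.0161). The latter call was lost without jejunum negative library 1 (adjusted p = 0.0677), duodenum negative library 2 (adjusted p = 0.0975), jejunum negative library 2 (adjusted p = 0.153) or duodenum negative library 3 (adjusted p = 0.111). At an unadjusted p under 0.05, 1 was higher, and with DESeq2 none was. The number of lower genes was 1 without jejunal library 1, jejunal library 2, duodenal library 2 or duodenal library 3, and 4 without jejunal library 3. Without the filter 1 was higher and 5 lower, and in the fit of the compared libraries alone 1 was higher and 6 lower. From jejunum to ileum 1 was higher and 16 lower in negative cells (background 0.405% and 1.70%). Of the lower ones 8 were P450 genes: *Cyp3a11* was at 28.2, 15.4 and 24.4 CPM and 1.03, 0.564 and 1.77 CPM (-4.37, SE 0.42, adjusted p = 2.6e-08), *Cyp2c65* at 41.7, 23.2 and 60.4 CPM and 5.07, 5.01 and 5.60 CPM, and *Cyp2b10* differed by -4.67. *Cyp2c66* had 1 count in the ileum, and the jejunum was higher by a ratio of 223 (95% exact counting interval 39.4 to 8.88e+03). *Sult1c2* was the one higher gene (1.85, adjusted p = 0.0116). Its call was lost without ileum negative library 1 (adjusted p = 0.0798), jejunum negative library 2 (adjusted p = 0.0798) or jejunum negative library 3 (adjusted p = 0.101), and in a fit of the compared libraries alone (adjusted p = 0.0695). *Ugt1a9*, whose exons are shared, had no count in the ileum and was at least 6.91-fold higher in the jejunum, a call lost whichever of the 6 libraries was left out. The number of lower genes was 9, 8 and 9 without ileal library 1, ileal library 2 or jejunal library 3, and that of higher genes was 0 without ileal library 1 or jejunal library 2 or 3 and 2 without ileal library 2. With library size scaling 3 were higher and 10 lower, without the filter 3 were higher, and in the fit of the compared libraries alone none was. Of the 10 enterocyte markers 9 were lower in the ileum (median -2.41, sums of 2613 to 3351 CPM in the jejunum and 578 to 853 CPM in the ileum), and their part was not tested.

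From ileum to colon 17 enzymes were higher and 3 lower in negative cells (background 2.22% and 3.02%). *Sult1a1* was at 3.09, 0.458 and 0.831 CPM in the ileum and 95.4, 99.7 and 134 CPM in the colon (6.22, SE 0.62, adjusted p = 2.91e-08). *Cyp2c55* (4.37), *Gstm1* (3.48), *Gstk1* (3.19) and *Gsta4* (2.30) were also higher, with adjusted p of at most 0.000135. *Cyp2d10*, *Cyp2f2* and *Cyp2c69* had no count in negative cells of the ileum and were at least 18.1-fold, 16.7-fold and 6.97-fold higher in the colon. The *Cyp2f2* call was lost without ileum negative library 1 (adjusted p = 0.0678) or ileum negative library 2 (adjusted p = 0.0771). The *Cyp2c69* call was lost without ileum negative library 1 (adjusted p = 0.089), colon negative library 1 (adjusted p = 0.071), ileum negative library 2 (adjusted p = 0.102) or ileum negative library 3 (adjusted p = 0.0616), and with DESeq2 (adjusted p = 0.529). The lower genes were *Cyp2u1* (-3.32, adjusted p = 0.000956), *Cyp3a25*, which was higher in the ileum by a ratio of 11.8 (95% exact counting interval 4.48 to 44.3), and *Ugt2a3*, which had no count in negative cells of the colon and was at least 2.92-fold higher in the ileum. The *Cyp3a25* call was lost without colon negative library 2 (adjusted p = 0.0831), and in a fit of the compared libraries alone (adjusted p = 0.143). The *Ugt2a3* call was lost without ileum negative library 1 (adjusted p = 0.0544), colon negative library 1 (adjusted p = 0.0501), colon negative library 2 (adjusted p = 0.0848) or colon negative library 3 (adjusted p = 0.0621). Without ileal library 1 or 2 the number of higher genes was 9, without colonic library 3 it was 11, and without colonic library 2 the number of lower genes was 1. With library size scaling 11 were higher and 6 lower, and in the fit of the compared libraries alone 1 was lower. Of the enterocyte markers 4 of 10 were lower (median -1.33) and of the colonocyte markers 3 of 7 higher (median 1.22) in the colon. Of the Paneth markers 7 of 8 were lower (median -4.26) and of the goblet markers 5 of 8 higher (median 2.17). Of the 8 enteroendocrine markers 1 was higher and 3 were lower (median -0.83). The part of these cell types was not tested.

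The last comparison asks whether the difference between the sorts itself depended on the region. Set against the mean of the jejunum and ileum, the signed duodenal difference (positive minus negative cells) was higher for 2 and lower for 14 of the 59 tested enzymes (background 9.60% and 7.90%). A higher signed value is not a larger effect where the difference is negative elsewhere. The lower ones were 9 P450 genes, *Gstk1*, *Gstt1*, *Sult1b1*, *Sult1d1* and *Ugt2b34*. For *Cyp3a11* the duodenal difference was lower by 3.33 on the log2 scale (-3.33, SE 0.45, adjusted p = 1.03e-05 as coded, duodenum minus the other regions), for *Cyp2d26* the value was -3.04 and for *Cyp3a25* -2.97. *Gsta4* had a higher signed difference in the duodenum (2.98, SE 0.46, adjusted p = 5.55e-05), as had *Sult1c2* (2.16, adjusted p = 0.012). The differences of *Sult1c2* itself were -0.86 in the duodenum (not called), -4.33 in the jejunum (from 3 counts over the positive libraries) and -1.71 in the ileum. *Gstt1* went from -1.29 in the duodenum to 0.70 and 0.59 in the jejunum and ileum (the last 2 not called). The *Sult1c2* call was lost without duodenum positive library 2 (adjusted p = 0.0673), and in a fit of the compared libraries alone (adjusted p = 0.0526). The duodenal positive cells also had the highest goblet and Paneth marker sums (53013 to 60457 and 22512 to 54083 CPM) and enterocyte marker sums of 2323 to 4916 CPM against 1772 to 2574 CPM in negative cells. In this comparison the signed value was lower for every enterocyte marker (-1.88 to -3.57). It was higher for every goblet marker (2.45 to 3.93) and for all Paneth markers but *Ang4*. Among stem and proliferation markers it was higher for *Olfm4*, *Ascl2*, *Smoc2*, *Mki67* and *Top2a* and lower for none. The part of these cell types in the result was not tested. The colonic difference, set against the mean of the 3 regions of the small intestine, was higher in signed value for 3 and lower for 2 enzymes (background 2.75% and 1.38%). It was higher for *Sult1c2* (2.50, SE 0.50, adjusted p = 0.00352), *Cyp2c65* (1.84, SE 0.41, adjusted p = 0.00839) and *Cyp2s1* (1.25, SE 0.33, adjusted p = 0.0271). For *Sult1c2* the colonic difference itself was 0.20 and the differences elsewhere were negative. The signed value was lower for *Cyp3a11* (-2.63, SE 0.72, adjusted p = 0.0354) and *Cyp2c68* (-1.92, SE 0.56, adjusted p = 0.048). In this colonic comparison it was also lower for 6 of 8 goblet (median -2.78), 5 of 8 Paneth (-3.87) and 4 of 10 enterocyte markers (-1.03). It was higher for 5 of 8 enteroendocrine (2.66) and 2 of 7 colonocyte markers (1.29). The part of these cell types in the result was not tested. The *Cyp2s1* call was lost without jejunum negative library 1 (adjusted p = 0.0752), colon positive library 1 (adjusted p = 0.0833), jejunum positive library 2 (adjusted p = 0.0637), colon positive library 2 (adjusted p = 0.144), colon negative library 2 (adjusted p = 0.128) or colon negative library 3 (adjusted p = 0.0503), and with RLE factors (adjusted p = 0.0605), with library size scaling (adjusted p = 0.253) or without the filter on low counts (adjusted p = 0.0874), and the *Cyp3a11* call without colon negative library 1 (adjusted p = 0.0936), colon positive library 2 (adjusted p = 0.0825), colon negative library 2 (adjusted p = 0.311) or colon positive library 3 (adjusted p = 0.0864). The *Cyp2c68* call was lost on leaving out each of 16 of the 24 libraries in turn (adjusted p = 0.0528 to 0.182). The number of lower values was 0 without colon positive or negative library 2 and 1 on leaving out each of 16 others in turn. The number of higher ones was 7 without jejunum positive library 3. In the duodenum the number of higher values was 1 without duodenum positive library 2. It was also 1 in the fit of the compared libraries alone. In the colon the number of higher values was 5 with DESeq2 or the index covariate and 1 with library size scaling.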

How the data were processed

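RNA of sorted cells from 8 groups (4 regions by 2 sorts, 3 libraries each) had been sequenced as 50-base reads. The authors deposited a table of raw counts per Ensembl gene for 24 libraries, and the submitters' processing notes name CASAVA, STAR 2.5.1 and the build GRCm38. The annotation and the strand setting used for counting are not given in the sources used here. Between 7458616 and 23063124 counts fell on genes per library. The 4 lines of the table that name no gene were left out of library sizes and tests. They held 16.7% to 31.8% (multimapping), 11.6% to 24.8% (no feature), 6.09% to 20.6% (unmapped) and 0.331% to 1.36% (ambiguous) of a library's reads.

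From these counts, edgeR 4.0.16 and limma 3.58.1 in R 4.3.3 filtered genes (filterByExpr, minimum count 10, minimum total 15), applied TMM factors (0.702 to 1.549) and fitted 1 quasi-likelihood model over all 24 libraries, with Benjamini-Hochberg adjustment over 15044 genes and a threshold of 0.05. Replicates were distinct libraries (chi-square per degree of freedom 26.5 to 177 over 24 pairs). Contrasts compared the sorts within a region, neighbouring regions within a sort, the sort difference of the duodenum with the mean of jejunum and ileum, and that of the colon with the mean of the other 3 regions. Names and coordinates came from GENCODE M21. Promoters came from RefSeq GRCm38.p6. The fitting script was tested on simulated data. Python 3.11.15 with pandas 2.3.3, SciPy 1.17.1 and matplotlib 3.10.9 served for intervals and plots.

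The enzymes, the gene lists and the markers were chosen with earlier results of these data known. Genes named were those past the threshold with the largest differences (up to 6 in each direction between sorts, up to 4 in the other comparisons), the 3 most abundant per family and any gene of the lists. Genes picked outside this rule are *Cyp2j5*, *Cyp2j6*, *Cyp3a44*, *Gstk1* and further called genes listed beside a count. Alternatives were DESeq2 1.42.0, RLE factors, library size without factors, omission of the low-count filter, the i5 index of the titles as a covariate, the compared libraries alone, and each library left out in turn.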

Additional observations from a re-analysis of the deposited data

Results flagged for a closer look

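By edgeR's interaction test 2 enzymes had a higher and 14 a lower signed sort difference (positive minus negative cells) in the duodenum, and 3 a higher and 2 a lower one in the colon. The 11 results given here are the largest of these in each direction, up to 4, with log2 values as coded below and n = 3 libraries per group. For the duodenum against the mean of jejunum and ileum, the difference between Venus-positive and Venus-negative cells was higher in signed value for *Gsta4* (2.98) and *Sult1c2* (2.16). It was lower for *Cyp3a11* (-3.33), *Cyp2d26* (-3.04) and *Cyp3a25* (-2.97). *Cyp2c66* had a fitted value of -3.88 that rested on few ileal counts, 34 over the positive libraries (33 of them in library 1) and 1 over the negative ones, so its size is uncertain. It was -1.90 (adjusted p = 0.393) without ileum positive library 1, and its call was also lost without duodenum negative library 2 (adjusted p = 0.0534). For the colon against the mean of the 3 regions of the small intestine it was higher for *Sult1c2* (2.50), *Cyp2c65* (1.84) and *Cyp2s1* (1.25), and lower for *Cyp3a11* (-2.63) and *Cyp2c68* (-1.92). For *Sult1c2* the sort difference was called lower in the jejunum (-4.33) and ileum (-1.71) and not called in the duodenum (-0.86) or colon (0.20). The jejunal value rested on 3 counts over the positive libraries, at most 2 in a library. Its size is therefore uncertain, as is that of both *Sult1c2* values that use it (2.16 and 2.50). Groups of 3 libraries are too small for the test of single outlying samples.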

How the results depend on the processing

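No paired analysis was made, because the labels carry no replicate number and do not name the mouse behind each library. The paper states that positive and negative cells of the 4 regions came from 3 mice each. Library numbers follow the order of deposit. A fit blocked on that order was not run, so sorts and regions that may share a mouse were compared as separate libraries. Matched by library number, *Cyp2c65* and *Ugt2a3* in the jejunum and *Sult1a1* in the colon differed between sorts in the same direction at every number. Above they are given as overlapping or not past the threshold. The i5 index splits groups into 2 and 1 libraries, too few for values within an index, so it was fitted as a covariate. Of 142 counts of called enzymes under the 6 alternative fits, 32 moved by over 1.5 times, and the cause was not tested. With library size alone, 0 were lower in the duodenum, 3 higher and 8 lower from jejunum to ileum in positive cells, 12 higher and 9 lower from ileum to colon in positive cells, 3 higher and 10 lower from jejunum to ileum and 11 higher and 6 lower from ileum to colon in negative cells, and 1 higher in the colonic interaction. With DESeq2, 2 were lower in the colon between sorts, 2 higher from jejunum to ileum in positive cells and 5 higher in the colonic interaction. With RLE factors 2 were lower in the colon. With the index covariate 7 were lower in the duodenum, 2 lower in the colon and 5 higher in the colonic interaction. Without the filter 17 were higher from duodenum to jejunum and 5 higher from jejunum to ileum in positive cells, 8 lower from ileum to colon in positive cells, 1 higher and 5 lower from duodenum to jejunum and 3 higher from jejunum to ileum in negative cells. In fits of the compared libraries alone, 4 were higher and 10 lower in the duodenum, 4 lower in the ileum and 4 lower in the colon between sorts, 1 higher and 6 lower from duodenum to jejunum, 0 higher from jejunum to ileum and 1 lower from ileum to colon in negative cells, and 1 higher in the duodenal interaction.

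With each library left out, the counts higher and lower between sorts were 2 to 2 and 0 to 5 (duodenum), 8 to 18 and 4 to 9 (jejunum), 13 to 16 and 5 to 12 (ileum), and 7 to 11 and 0 to 2 (colon). In positive cells they were 9 to 13 and 6 to 9 (duodenum to jejunum), 1 to 2 and 9 to 13 (jejunum to ileum), and 16 to 21 and 4 to 6 (ileum to colon). In negative cells they were 0 to 0 and 1 to 4, 0 to 2 and 8 to 14, and 9 to 17 and 1 to 4 for the same steps. Higher and lower interactions numbered 1 to 3 and 11 to 15 (duodenum) and 2 to 7 and 0 to 2 (colon). Of named calls, 133 of 136 held with DESeq2, 131 with RLE factors, 112 with library size alone, 133 without the filter, 135 with the index covariate and 110 of 120 in fits of the compared libraries alone. Of 1050 refits without a library, 877 kept the call, 172 lost it, and the ileal sort difference of *Cyp2c23* went to 0.00 without ileum positive replicate 1 (up to 5.91 without another). Genes under 3 counts per library could not be compared at this depth.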
